A study of Mus musculus with 4 samples.

Results

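Type I interferons are secreted when cells sense foreign or misplaced nucleic acid, and they act through the receptor pair Ifnar1 and Ifnar2. The receptor's kinases activate Stat2, which joins Irf9 in the complex ISGF3, and this complex binds a short promoter element, the interferon stimulated response element (ISRE), in front of the interferon stimulated genes. The products of these genes block viral replication, modify proteins with Isg15 and tune the pathway itself, and in bone marrow type I interferon is known to push haematopoietic stem cells out of quiescence.

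The genes described here are 38 type I interferon stimulated genes, chosen by name as the effectors of the response together with the factors Stat2, Irf7 and Irf9, and without the nucleic acid sensors. All 38 of the 38 names were among the 15255 genes of the deposited table. The study sequenced poly(A) RNA from freshly isolated, PBS-washed mouse LSK cells, the lineage-negative, Sca-1+ and c-Kit+ bone marrow fraction that holds haematopoietic stem and progenitor cells. The groups were Afg3l2 KO, with 2 libraries, and Afg3l2 WT, with 2 libraries. Afg3l2 encodes a subunit of an AAA protease of the mitochondrial inner membrane. How the deletion was made, the age and strain of the mice, and whether each library came from its own animal are not given in the sources used here, so the p-values measure only the spread between these libraries.

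Each library held 16908812 and 16522338 reads assigned to genes in KO, and 17222255 and 17271936 in WT. Values are the deposited CPM, read counts scaled per library by the authors with a further normalisation factor, so that the columns sum to 1004300 and 996995 in KO, and to 974603 and 1024746 in WT. Afg3l2 itself stood at 36.7 and 30.1 CPM in KO, against 79.6 and 86.0 CPM in WT, a ratio of 0.404. Both KO libraries lay below both WT libraries, so the labels and the targeted transcript go the same way. In each group the library numbered 1 had low Xist, the transcript of the inactive X chromosome (15.7 CPM in KO and 0.113 CPM in WT), and high Ddx3y, a Y-linked gene (72.4 CPM in KO and 83.4 CPM in WT). The library numbered 2 had high Xist (1004 CPM in KO and 889.5 CPM in WT), so each group holds 1 library of each kind. Kit, which encodes the sort marker c-Kit, had 254.0 and 223.3 CPM in KO, against 340.8 and 243.4 CPM in WT. None of 12 stem and progenitor markers was at 0 in any library, and limma called 0 of them (unadjusted p under 0.05: 2 higher, Ly6a and Gata2, and 2 lower, Flt3 and Myb). With the replicate block limma called 1 of the 12 higher and 5 lower, beside 1013 higher and 766 lower of all 15255 genes.

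The summed level of the 38 genes was 2118 and 2339 CPM in KO libraries, against 1335 and 1467 CPM in WT libraries. Of the 38 genes, 11 rose in KO at an adjusted p under 0.05 (limma on log2(CPM + 1), Benjamini-Hochberg over all 15255 genes), and 0 fell. Over all genes tested, 1.58% were called higher and 0.839% lower. The 11 were Oasl1, Isg15, Ifi44, Rsad2, Usp18, Oas3, Oasl2, Lgals3bp, Isg20, Samd9l and Parp14. At an unadjusted p under 0.05, 32 of the 38 were higher and 0 lower, beside 11.0% and 9.79% of all genes. The same genes tested on read counts gave 10 called higher with edgeR, which calls 1.27% of all genes higher, and 23 with DESeq2, which calls 4.41%; neither called any of the 38 lower.

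Both KO libraries lay above both WT libraries for 34 of the 38 genes, beside 27.2% of all genes. Bst2 was the 1 gene with both KO libraries below both WT libraries, and the groups overlapped for Tor3a, Mx2 and Sp100. The median log2 fold change of the 38 genes was 0.80, with a range of -0.23 to 1.99, while the median over all genes was -0.02. Log2 fold changes are of CPM + 1 and understate the change of genes with few reads; the ratios of mean CPM ran from 0.854 to 4.04 with a median of 1.80. Within the libraries numbered 1, KO was above WT for 35 genes, and within those numbered 2 for 34.

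**Figure D1:**
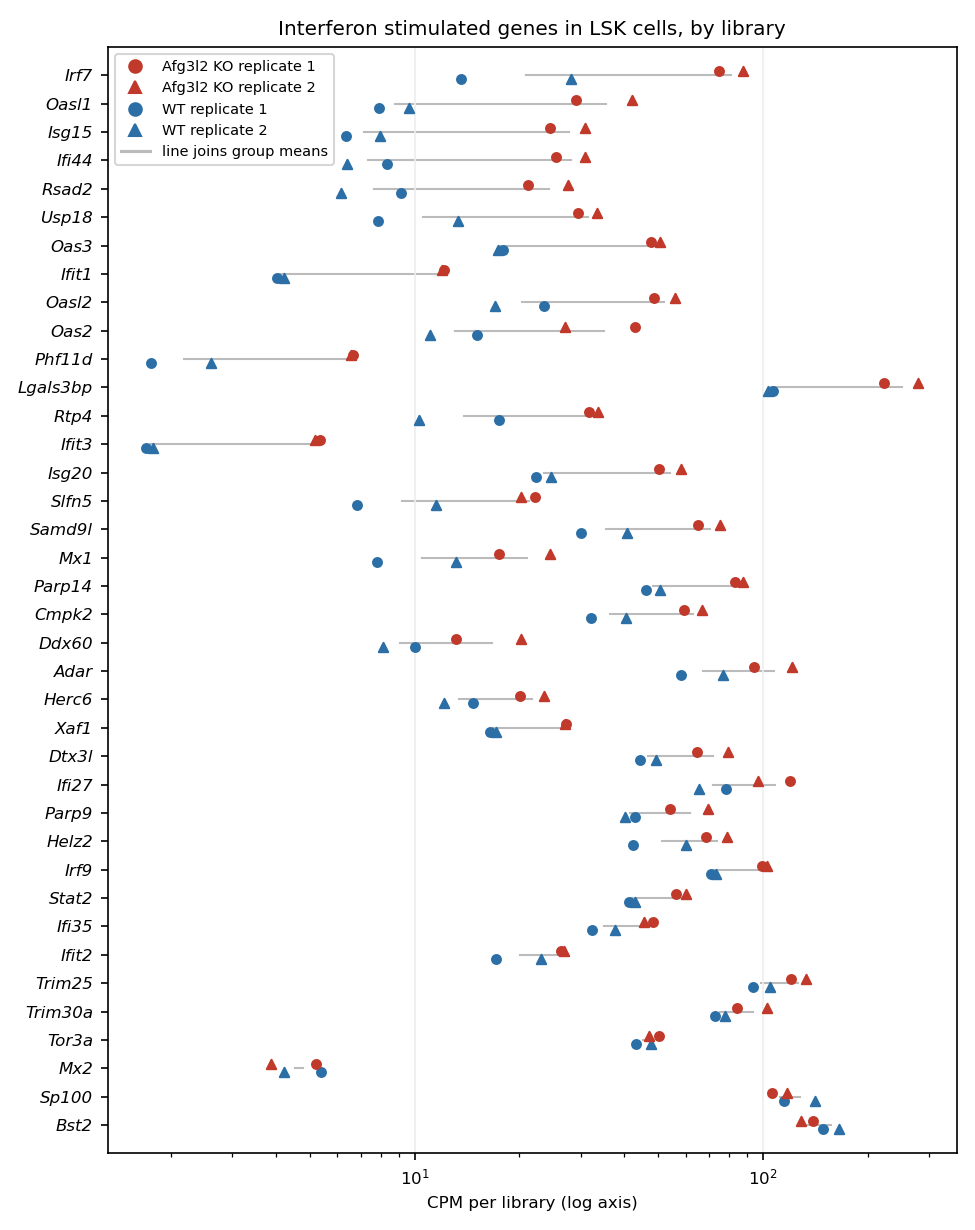
CPM of each of the 38 interferon stimulated genes (rows) in each library, on a log axis; circles are replicate 1 and triangles replicate 2, in red for Afg3l2 KO and blue for Afg3l2 WT. For 34 genes both KO points lie to the right of both WT points.

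The calls depended on single libraries, in the design's 2 against 2. Each of the 4 fits below leaves 1 library in a group, and the share of all genes called higher moved in the same order. Without KO replicate 2 none of the 38 genes was called by limma, although 21 were higher at an unadjusted p under 0.05; without KO replicate 1 only Lgals3bp was called. Without WT replicate 1 the count was 13, with Parp14 and Samd9l no longer among them, and without WT replicate 2 it was 21. The median log2 fold change of the 38 genes stayed between 0.73 and 0.94 in these 4 fits.

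**Figure D2:**
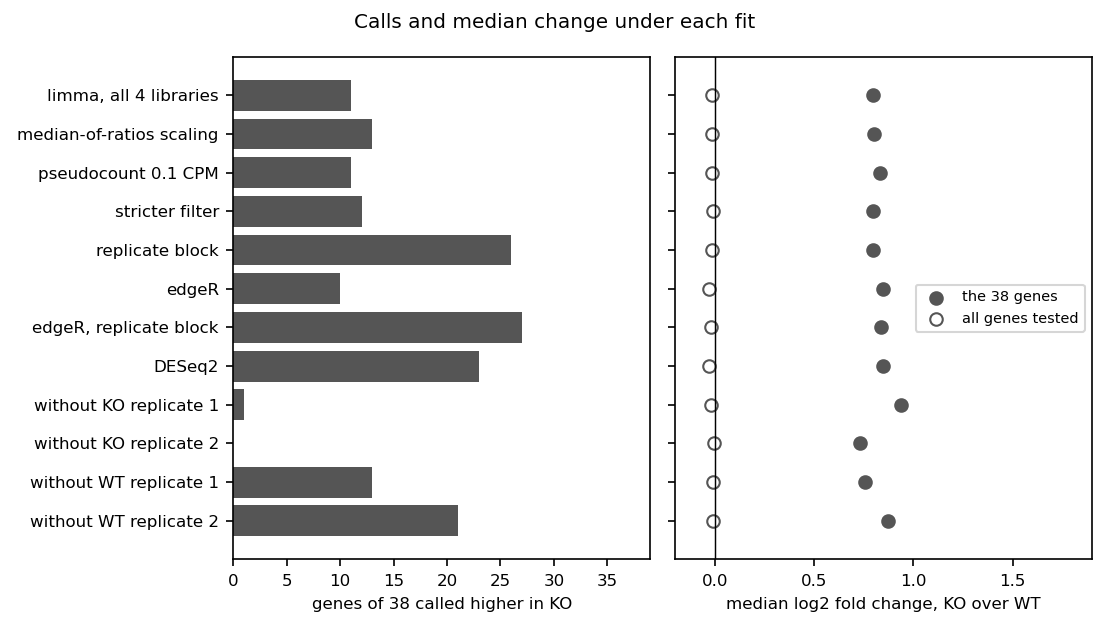
For each fit (rows), the left panel gives the number of the 38 genes called higher in KO and the right panel the median log2 fold change, KO over WT, of the 38 genes (filled) and of all genes (open). The count runs from 0 to 27 across fits, while the filled points stay between 0.73 and 0.94 and the open points near 0.

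Because the genes were defined by their inducer, their promoters were searched for the ISRE core, written GAAANNGAAA and read on both strands. RefSeq promoter windows of GRCm38.p6, from 250 bases before to 50 after the transcription start, matched 29 of the 38 genes, and 10 of these 29 (34.5%) held the core. The share over all 27025 genes with a window was 3.99%. Among the genes called higher 3 of 9 held it, and among those not called 7 of 20. The windows below are given 5′ to 3′ on the gene's strand, with matches to the core in capitals; a capital run that begins with TTTC is a match on the opposite strand. Isg15 is shown over its whole window (chr4:156200769-156201068, minus strand) because it carries 3 overlapping matches in front of one of the genes with the largest change. Stretches around the matches follow for Oas3 (chr5:120777717-120777742, minus strand) and Rsad2 (chr12:26456555-26456580, minus strand), which rose. Ifit1 (chr19:34640777-34640821, plus strand), Ifit3 (chr19:34583365-34583424, plus strand), Ddx60 (chr8:61928026-61928085, plus strand) and Stat2 (chr10:128270268-128270293, plus strand) were not called. Bst2 (chr8:71537579-71537610, minus strand) is shown because its KO libraries were the lower ones.
Isg15 promoter window: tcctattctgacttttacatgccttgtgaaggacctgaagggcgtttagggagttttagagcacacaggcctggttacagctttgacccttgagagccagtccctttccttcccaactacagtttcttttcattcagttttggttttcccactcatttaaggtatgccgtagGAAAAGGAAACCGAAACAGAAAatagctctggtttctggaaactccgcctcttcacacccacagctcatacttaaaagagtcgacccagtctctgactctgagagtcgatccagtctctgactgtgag
Oas3 stretch: agggaggaGAAAACGAAAgtgaaggg
Rsad2 stretch: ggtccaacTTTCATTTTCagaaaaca
Ifit1 stretch: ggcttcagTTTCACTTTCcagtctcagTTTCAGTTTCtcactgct
Ifit3 stretch: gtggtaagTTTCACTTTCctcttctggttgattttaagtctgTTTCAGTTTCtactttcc
Ddx60 stretch: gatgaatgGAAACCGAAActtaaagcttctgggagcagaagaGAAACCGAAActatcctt
Stat2 stretch: caccctggTTTCAGTTTCctttccct
Bst2 stretch: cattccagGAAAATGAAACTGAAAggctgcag
The core also matched once in the window of Slfn5 and in both windows of Trim30a. Irf7, the gene with the largest log2 fold change, had no match in its window (chr7:141266375-141266674, minus strand), which is printed whole.
Irf7 promoter window: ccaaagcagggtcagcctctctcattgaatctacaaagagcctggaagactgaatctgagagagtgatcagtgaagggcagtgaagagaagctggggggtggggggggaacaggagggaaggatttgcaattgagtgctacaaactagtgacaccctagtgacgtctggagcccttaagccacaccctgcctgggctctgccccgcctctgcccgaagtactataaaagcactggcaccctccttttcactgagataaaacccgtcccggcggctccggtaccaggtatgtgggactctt
That says only that these letters are not in these 300 bases. The gamma activated sequence, TTCNNNGAA, is an element of interferon gamma induced promoters. It was found in the windows of 5 of the 29 genes (17.2%), beside 9.55% of all genes. In 1 of the 37 windows of these 29 genes it overlapped an ISRE core match. It was in 6 of 17 interferon gamma induced genes (35.3%) and 5 of 45 other type I interferon induced genes (11.1%).

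**Figure D3:**
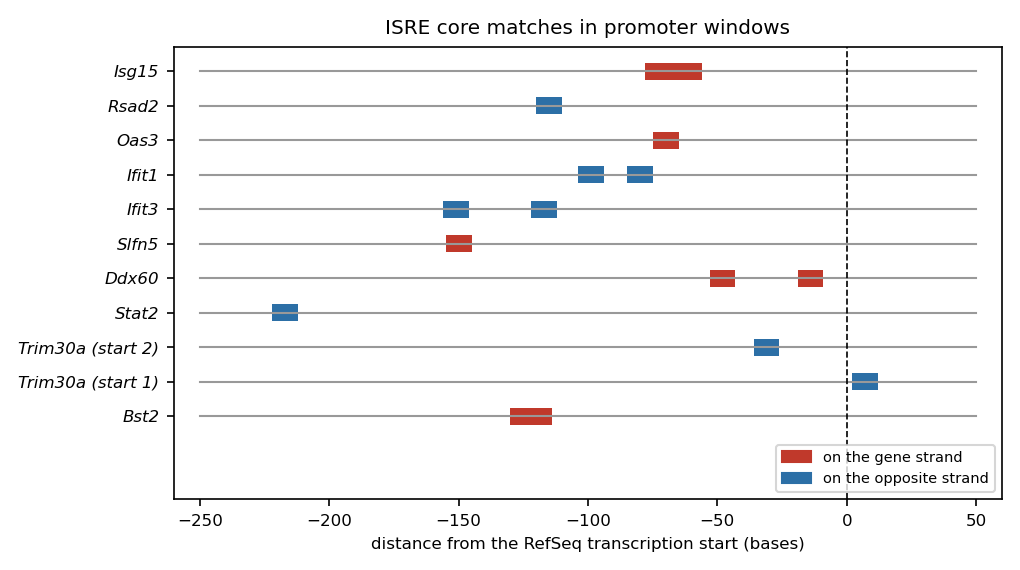
Position of each ISRE core match in the promoter windows of the 10 genes that hold one, as distance in bases from the RefSeq transcription start (dashed line); red blocks are matches on the gene's strand and blue blocks on the opposite strand. Isg15, Ddx60, Ifit1, Ifit3 and Bst2 have more than 1 match in a window.

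Among the factors that carry and limit the signal, Usp18 rose. Usp18 removes Isg15 from proteins and blocks signalling at Ifnar2. It stood at 29.4 and 33.4 CPM in KO, against 7.87 and 13.3 CPM in WT, and rose by 1.52 ± 0.27 on the log2 scale (SE, limma adjusted p = 0.0339). Irf7 (ENSMUSG00000025498, chr7:141262706-141266481, minus strand), the transcription factor that amplifies interferon production, stood at 74.6 and 87.4 CPM in KO, against 13.6 and 28.2 CPM in WT. The WT libraries were about 2-fold apart, and both KO libraries lay well above them. Its log2 fold change of 1.99 ± 0.34, the largest of the 38, missed the threshold (limma adjusted p = 0.0528). DESeq2 called Irf7, as did limma without either WT replicate, limma with the replicate number as a block (adjusted p = 0.00365) and edgeR with that block (adjusted p = 0.00681). Its adjusted p ranged from 5.55e-07 to 0.405 over the alternatives. Irf7 shares 45 exon bases with Phrf1 on the other strand, and the sources do not say whether reads kept their strand.

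Irf9 and Stat2 were higher in both KO libraries but not called by limma without a block. Irf9 was called by limma with the replicate block (adjusted p = 0.0365). It was also called by edgeR with that block (adjusted p = 0.0318) and by DESeq2 (adjusted p = 0.0413). Stat2 was called in 0 of the 11 alternatives. Irf9, the DNA-binding subunit, had 99.6 and 102.5 CPM in KO, against 71.0 and 73.2 CPM in WT, a log2 fold change of 0.48 ± 0.13 (limma adjusted p = 0.113). Stat2, its partner, had 56.2 and 60.2 CPM in KO, against 41.3 and 42.9 CPM in WT, a log2 fold change of 0.46 ± 0.15 (limma adjusted p = 0.140). For both genes the libraries of a group lay close together and the groups were apart by about 1.4-fold. Irf9 shares 123 exon bases with Rnf31 on the same strand.

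In the Isg15 system, Isg15 rose, the 1 of 3 genes called by limma with or without the replicate block. Isg15 (ENSMUSG00000035692, chr4:156199424-156200818, minus strand) is a ubiquitin-like protein that is conjugated to new proteins during the response. It had 24.5 and 30.8 CPM in KO, against 6.34 and 7.95 CPM in WT, a ratio of 3.88 (log2 fold change 1.81 ± 0.24, limma adjusted p = 0.0144). Each KO library held over 3 times the level of either WT library. Herc6, the mouse ligase that attaches Isg15, had 20.02 and 23.6 CPM in KO, against 14.7 and 12.2 CPM in WT, and was not called (limma adjusted p = 0.155). Trim25, a ligase that acts on the RNA sensor RIG-I, had 120.1 and 132.5 CPM in KO, against 93.4 and 104.5 CPM in WT (limma adjusted p = 0.219).

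The OAS family gave the highest share of calls, 3 of 4, and with the replicate block all 4 were called. OAS enzymes are activated by double-stranded RNA and make the messenger that switches on RNase L, while the OAS-like protein Oasl1 lacks that activity. Oasl1 (chr5:114923240-114937915, plus strand) had 29.0 and 42.0 CPM in KO, against 7.92 and 9.67 CPM in WT, a ratio of 4.04, the highest of the 38 genes (log2 fold change 1.88 ± 0.25, limma adjusted p = 0.0141). Oas3 (chr5:120753098-120777661, minus strand) had 47.6 and 50.8 CPM in KO, against 17.9 and 17.3 CPM in WT (log2 fold change 1.43 ± 0.16, limma adjusted p = 0.00977). In Oas3 the libraries within each group were nearly equal, and its adjusted p was the lowest of the list. Oasl2 had 48.5 and 55.8 CPM in KO, against 23.6 and 17.0 CPM in WT (log2 fold change 1.33 ± 0.20, limma adjusted p = 0.0208). Oas2 had 42.9 and 27.0 CPM in KO, against 15.1 and 11.1 CPM in WT; its groups did not overlap, but the KO libraries were far apart and it missed the threshold (log2 fold change 1.33 ± 0.27, limma adjusted p = 0.0521). The 4 genes sit in 2 neighbouring pairs on chromosome 5, Oasl2 with Oasl1 and Oas2 with Oas3. Reads could be split among the near-identical Oas1 copies, which are not among the 38 genes.

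Ifit1 binds viral RNA that lacks the host cap methylation. Of the 3 IFIT genes 0 were called, although 2 of 3 were higher at an unadjusted p under 0.05. With the replicate block 2 of 3 were called. Ifit1 had 12.1 and 12.0 CPM in KO, against 4.02 and 4.21 CPM in WT (log2 fold change 1.35 ± 0.27, limma adjusted p = 0.0512). Ifit3 had 5.35 and 5.19 CPM in KO, against 1.70 and 1.78 CPM in WT (log2 fold change 1.19 ± 0.31, limma adjusted p = 0.0942). Both had about 3-fold more in KO with close libraries, at levels where the pseudocount of 1 CPM shortens the fold change. Ifit2 differed less, with 26.3 and 26.9 CPM in KO, against 17.1 and 23.0 CPM in WT (limma adjusted p = 0.312). All 3 lie in 1 cluster on chromosome 19, and Ifit3 has a near-identical copy, Ifit3b, that can share its reads.

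Among the GTPases and membrane effectors, 2 of 7 rose, and with the replicate block 5 of 7 were called. Ifi44, a cytoplasmic protein induced by interferon, had 25.5 and 30.8 CPM in KO, against 8.32 and 6.41 CPM in WT (log2 fold change 1.81 ± 0.24, limma adjusted p = 0.0144). Rsad2, or viperin, makes a chain-terminating nucleotide, and had 21.1 and 27.5 CPM in KO, against 9.17 and 6.17 CPM in WT (log2 fold change 1.56 ± 0.27, limma adjusted p = 0.0325). In both genes the lower KO library exceeded the higher WT library by more than 2-fold. Cmpk2, a mitochondrial nucleotide kinase whose gene lies 12751 bases from Rsad2 on the other strand, had 59.5 and 66.8 CPM in KO, against 32.0 and 40.6 CPM in WT, and was not called (limma adjusted p = 0.0610). The dynamin-like GTPase Mx1 had 17.5 and 24.6 CPM in KO, against 7.81 and 13.2 CPM in WT (limma adjusted p = 0.139). Ifi27 had 119.7 and 97.0 CPM in KO, against 78.3 and 65.4 CPM in WT (limma adjusted p = 0.118).

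Mx2 and Bst2 did not share the direction of the other 5. Mx2, annotated as a polymorphic pseudogene in the mouse reference, had 5.23 and 3.86 CPM in KO, against 5.38 and 4.21 CPM in WT, and the groups overlapped (log2 fold change -0.07 ± 0.32, limma adjusted p = 0.925). Bst2, or tetherin, holds budding virus at the cell surface, and had 139.5 and 128.6 CPM in KO, against 148.5 and 165.5 CPM in WT (log2 fold change -0.23 ± 0.14, limma adjusted p = 0.390). The Bst2 difference did not pass the test. Per kilobase of exon it was the most abundant of the 38 genes in both groups, at 148.4 CPM per kb in KO and 173.9 CPM per kb in WT, and its promoter holds the ISRE core.

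**Figure D4:**
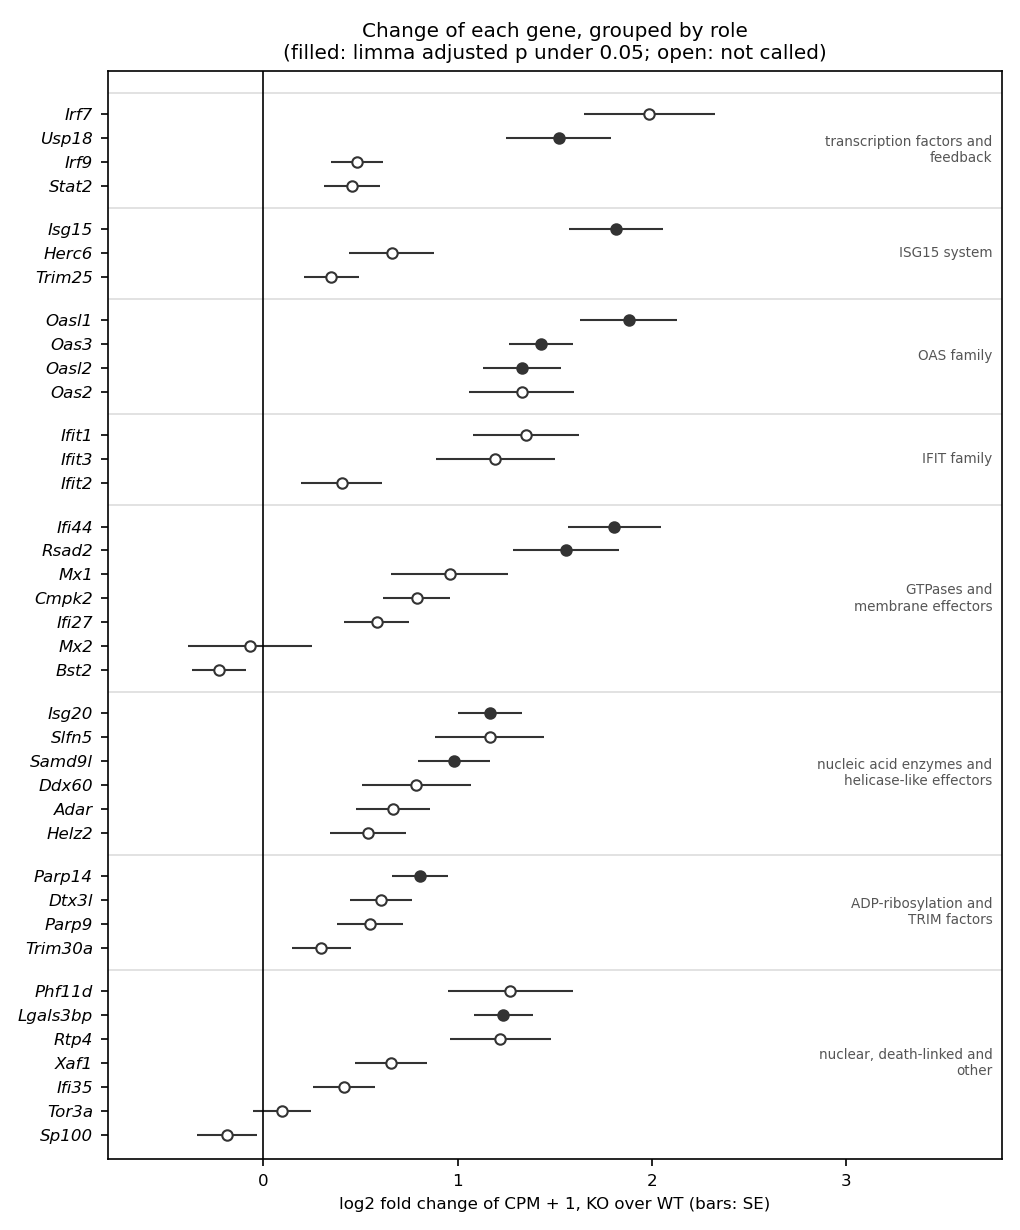
Log2 fold change of CPM + 1, KO over WT, of each gene with its SE, grouped by role; filled points passed limma's adjusted p of 0.05 and open points did not. The 11 filled points lie between 0.81 and 1.88, and 3 open points, Mx2, Sp100 and Bst2, lie below 0.

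Of the 6 enzymes and helicase-like effectors that act on nucleic acid or translation, 2 rose, and with the replicate block 5 were called. Isg20, a 3′ to 5′ exonuclease, had 50.2 and 58.1 CPM in KO, against 22.4 and 24.7 CPM in WT (log2 fold change 1.17 ± 0.17, limma adjusted p = 0.0163). Samd9l, which restrains cytokine signalling and growth in haematopoietic cells, had 65.3 and 75.5 CPM in KO, against 30.1 and 40.8 CPM in WT (log2 fold change 0.98 ± 0.19, limma adjusted p = 0.0433). Samd9l was the 1 called gene that edgeR did not call. Slfn5 had 22.2 and 20.3 CPM in KO, against 6.85 and 11.5 CPM in WT (limma adjusted p = 0.0808). Adar, which edits adenosine to inosine in double-stranded RNA and also belongs with the RNA sensing genes, had 94.2 and 121.2 CPM in KO, against 58.3 and 76.6 CPM in WT (limma adjusted p = 0.117). The helicases Ddx60 and Helz2 were higher in both KO libraries, with log2 fold changes of 0.79 ± 0.28 and 0.54 ± 0.19, and were not called.

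Parp14 rose, the 1 of 4 genes among the ADP-ribosylation and TRIM factors, and with the replicate block 2 of 4 were called. Parp14 adds mono-ADP-ribose and had 83.2 and 87.5 CPM in KO, against 46.1 and 50.7 CPM in WT (log2 fold change 0.81 ± 0.14, limma adjusted p = 0.0330). Dtx3l and Parp9, which work as one ubiquitin ligase complex, are neighbours of Parp14 on chromosome 16. Dtx3l had 64.7 and 79.2 CPM in KO, against 44.4 and 49.2 CPM in WT (limma adjusted p = 0.102). Parp9 had 54.1 and 69.3 CPM in KO, against 42.9 and 40.2 CPM in WT (limma adjusted p = 0.134). The exons of these 2 genes overlap by 458 bases on opposite strands, and reads there cannot be told apart if strand was not kept. Trim30a, a TRIM protein, had 84.5 and 102.6 CPM in KO, against 73.0 and 78.0 CPM in WT (limma adjusted p = 0.311).

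Of the 7 remaining genes, 4 were called with the replicate block. Without it, Lgals3bp, a secreted galectin-binding glycoprotein, was the 1 that rose. It had 222.4 and 279.3 CPM in KO, against 107.1 and 103.4 CPM in WT (log2 fold change 1.24 ± 0.15, limma adjusted p = 0.0115). Both KO libraries held at least 2-fold the WT level, and per kilobase of exon it ranked 2nd of the 38 genes in KO, at 88.1 CPM per kb, against 37.0 CPM per kb in WT. Phf11d had 6.65 and 6.58 CPM in KO, against 1.75 and 2.61 CPM in WT (limma adjusted p = 0.0885), and belongs to a family of near-identical copies. Rtp4, a chaperone of receptor transport, had 31.7 and 33.6 CPM in KO, against 17.4 and 10.3 CPM in WT (limma adjusted p = 0.0575). Xaf1, a promoter of apoptosis, had 27.1 and 27.0 CPM in KO, against 16.5 and 17.1 CPM in WT (limma adjusted p = 0.114). These 3 had groups that did not overlap, and none passed the test without a block. Ifi35 was close to them in direction, with 48.3 and 45.6 CPM in KO, against 32.3 and 37.7 CPM in WT (limma adjusted p = 0.200). Tor3a had 50.3 and 46.9 CPM in KO, against 43.2 and 47.6 CPM in WT, and Sp100, a nuclear body protein, had 106.4 and 117.5 CPM in KO, against 115.2 and 140.7 CPM in WT. In both genes the groups overlapped.

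The order of levels differed between the groups. Per kilobase of exon, Isg15 stood 4th of the 38 in KO, at 36.6 CPM per kb, and 11th in WT, at 9.45 CPM per kb. Irf7 stood 9th in KO, at 21.4 CPM per kb, and 19th in WT, at 5.53 CPM per kb. The 19 genes with the lower WT mean (1.74 to 20.3 CPM) included 7 called genes and had a median log2 fold change of 1.27. The 19 with the higher WT mean (20.9 to 157.0 CPM) included 4 called genes and had a median of 0.55. The WT level that made this split also enters the fold change, so the split cannot show how level and change relate.

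The pathway around these genes was read from 6 further lists with 113 tested genes, of which 11 (9.73%) rose and 0 fell, with a median log2 fold change of 0.39. None of 21 listed interferon ligand genes had a row in the table, so the ligands were not analysed here. Among 6 receptor subunits 0 were called by limma; their median log2 fold change was -0.26. Ifnar2, a chain of the type I receptor, had 79.8 and 70.6 CPM in KO, against 99.5 and 89.0 CPM in WT (limma adjusted p = 0.260). At an unadjusted p under 0.05, 0 receptor genes were higher and 1, Il10rb, was lower, and edgeR and DESeq2 called 0. Of 10 signalling genes limma and edgeR called 0, and DESeq2 called 1 higher; 2 were higher at an unadjusted p under 0.05 and 0 lower. Of 10 negative regulators limma and edgeR called 0, while DESeq2 called 1 higher and 1 lower, and the median was -0.09; at an unadjusted p under 0.05, 2 were higher and 2 lower. The phosphatase Ptpn6, which dampens cytokine receptor signalling, had 161.4 and 138.5 CPM in KO, against 208.1 and 237.9 CPM in WT (log2 fold change -0.57 ± 0.15, limma adjusted p = 0.0956).

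Of 50 other type I interferon induced genes, 5 rose, namely Rnf213, Gm4951, Oas1g, Ube2l6 and Parp12, with a median over the 50 of 0.45. Rnf213, a giant ubiquitin ligase, had 243.6 and 333.4 CPM in KO, against 83.2 and 113.3 CPM in WT (log2 fold change 1.54 ± 0.21, limma adjusted p = 0.0156). Ube2l6, the conjugating enzyme that loads Isg15, had 80.8 and 82.2 CPM in KO, against 49.4 and 40.6 CPM in WT (log2 fold change 0.85, limma adjusted p = 0.0374). Of 25 interferon gamma induced genes 4 rose, the GTPases Igtp, Iigp1 and Irgm1 and the chemokine Cxcl9, with a median of 0.57. Igtp had 62.6 and 73.7 CPM in KO, against 24.7 and 27.5 CPM in WT (log2 fold change 1.35 ± 0.16, limma adjusted p = 0.011). Many genes respond to both interferon types, so the lists do not separate them. Among 18 nucleic acid sensor genes 2 rose and 0 fell, with a median of 0.42; at an unadjusted p under 0.05, 8 were higher and 3 lower, and with the replicate block 5 were called higher and 2 lower. Tlr3, the endosomal receptor for double-stranded RNA, had 45.9 and 46.3 CPM in KO, against 4.58 and 10.4 CPM in WT (log2 fold change 2.56, limma adjusted p = 0.0156). Ifih1, the cytosolic sensor MDA5, had 43.4 and 63.5 CPM in KO, against 16.2 and 22.4 CPM in WT (log2 fold change 1.41, limma adjusted p = 0.0293). The 3 lower at an unadjusted p were Sting1, Tbk1 and Aim2. Sting1, the adaptor of cytosolic DNA sensing, had 64.1 and 45.0 CPM in KO, against 109.6 and 91.0 CPM in WT, and was not called (log2 fold change -0.88 ± 0.20, limma adjusted p = 0.0663). Without either KO replicate 0 of the 113 genes were called, without WT replicate 1 the count was 14, and without WT replicate 2 it was 25.

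**Figure D5:**
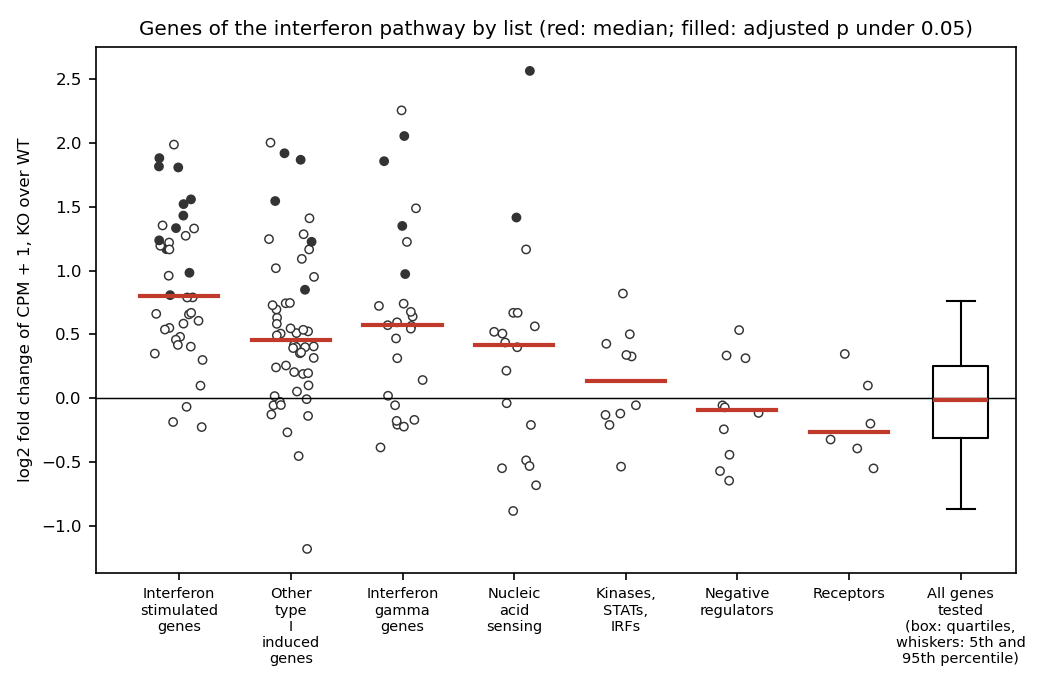
Log2 fold change of CPM + 1, KO over WT, of the genes of each interferon pathway list (columns; red line: median; filled: limma adjusted p under 0.05), beside all genes tested as a box of quartiles with whiskers from the 5th to the 95th percentile. The 38 genes have a median of 0.80, the receptors -0.26 and the signalling genes 0.14.

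Ly6a, which encodes the sort marker Sca-1, is itself induced by interferon. It had 95.4 and 76.9 CPM in KO, against 57.1 and 61.6 CPM in WT, and was not called (log2 fold change 0.52 ± 0.16, limma adjusted p = 0.132). Since the cells were sorted on this marker, its part in the result was not tested. Plasmacytoid dendritic cells are strong producers of type I interferon and carry much Irf7 and Bst2. Of 11 of their marker genes outside the 38, 4 fell (Ly6d, Runx2, Siglech and Tcf4) and 1 rose (Cox6a2). The summed level of the 11 was 565.7 and 612.7 CPM in KO, against 765.5 and 1069 CPM in WT. Siglech, their defining surface lectin, had 2.32 and 5.73 CPM in KO, against 24.3 and 50.5 CPM in WT. The part of these cells in the result was not tested. Fewer such cells and less RNA per cell cannot be told apart in bulk RNA.

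Within the stem and progenitor list, both KO libraries lay below both WT libraries for 3 of 12 genes, a share near the 26.9% of all genes. With the replicate block, 5 of the 12 were called lower, beside 766 of all 15255 genes. Flt3, a receptor of multipotent and lymphoid-primed progenitors, had 155.1 and 101.0 CPM in KO, against 397.9 and 207.2 CPM in WT. Cd34, a progenitor surface protein, had 268.4 and 119.4 CPM in KO, against 580.3 and 305.0 CPM in WT. Myb had a ratio of 0.721, and the transcription factor Gata2, with both KO libraries above both WT libraries, one of 1.69. The 12 genes summed to 1665 and 1363 CPM in KO, against 2501 and 1654 CPM in WT. The part of the sorted cells' makeup in the result was not tested.

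The sums of other cell types' markers overlapped between the groups. The 14 monocyte genes summed to 637.2 and 482.7 CPM in KO, against 624.4 and 1567 CPM in WT, with 2 lower (Cx3cr1 and Csf1r) and 0 higher. The 10 neutrophil genes summed to 716.6 and 490.6 CPM in KO, against 84.1 and 1737 CPM in WT, the widest split, and WT replicate 2 was the high library for both. The 14 lymphoid genes summed to 229.4 and 414.8 CPM in KO, against 333.1 and 749.9 CPM in WT. No marker of these lists was at 0 in any library, and their part in the result was not tested, beyond the counts without WT replicate 2 given above.

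In the authors' deposited table, 24 of the 38 genes had an FDR under 0.05 and a positive log2 fold change, and 0 a negative one; the table calls 6.04% of all genes higher and 5.47% lower. Those values matched a refit with the replicate number as a block, which the limma test above did not use. With that block limma called 26 of the 38 genes higher, beside 6.64% of all genes, and edgeR 27, beside 6.69%. The authors' deposited table gives Irf7 a log2 fold change of 2.04 with an FDR of 7.26e-12, and Bst2 one of -0.23 with an FDR of 0.501. In the authors' deposited table of enriched terms for genes higher by a log2 fold change over 0.5, defense response to virus held 44 genes, 15 of them among the 38, at 2.76-fold with an FDR of 1.82e-06. The term response to type I interferon in the authors' deposited table held 15 genes, 7 of them among the 38, at 3.47-fold with an FDR of 0.00533. Cellular response to interferon-beta held 18 genes there, 2 of them among the 38, at 4.45-fold with an FDR of 7.49e-05. Response to interferon-gamma held 25 genes there, 1 of them among the 38, at 2.85-fold with an FDR of 0.000677. The enriched terms were thus not limited to type I interferon.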

How the data were processed

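Per the submitters' processing notes the tools were STAR 2.7.10a and featureCounts 2.0.1 with GRCm38.p6; settings and strand use are not given in the sources used here. The deposited signal columns hold CPM per library for 15255 genes, and dividing by their smallest step gave whole reads, 100% of values within 0.01. Per the file headers, the deposited table also holds the authors' log2 fold changes, p-values and a likelihood ratio score. The deposited DAVID sheets hold a fold enrichment. Refitting the recovered reads with edgeR's likelihood ratio test and a replicate block matched 15255 of 15255 deposited log2 fold changes within 1e-06.

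Genes were tested on log2(CPM + 1) by limma 3.58.1 (R 4.3.3), two-sided, with trend and robust moderation and without a block. A call needs a Benjamini-Hochberg adjusted p under 0.05. Ratios are of mean CPM; ± is the SE, n = 2 per group with 2 residual degrees of freedom. Alternatives were median-of-ratios scaling, a pseudocount of 0.1, a stricter filter (at least 1 CPM in each library of either group, and 20 reads on average), edgeR 4.0.16, DESeq2 1.42.0, a replicate block and each library left out; the fits were tested on simulated data. All 38 genes are named, with the called genes of each other list and those a result turns on. The 38 genes and all lists were chosen with earlier results of these data known. Gene positions and exon lengths are GENCODE, matched for 15232 genes, and promoter windows are RefSeq GRCm38.p6. Depth limits precision: the 38 genes had 64 to 4629 reads per library in KO and 30 to 2790 in WT. Some results are not reported here.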

Additional observations from a re-analysis of the deposited data

How the results depend on the processing

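Every one of the 38 genes except Mx2 kept the sign of its log2 fold change in all 11 alternatives; Mx2 lay between -0.25 and 0.11 when a library was left out. The authors labelled their comparison paired, and their values matched a refit with the replicate number as a block. What a pair shares is not stated. Same-numbered libraries went the same way in Xist and Ddx3y, and their deviations correlated at 0.29 over 13795 genes. With a replicate block limma called 26 of the 38 genes higher, and edgeR with the block 27. The 11 called genes were also called with the block, with edgeR and the block, with DESeq2 (23 genes in all), with the other scaling (13), the other pseudocount (11) and the stricter filter (12), and 10 of them with edgeR, which lost Samd9l. Ifit1 was gained with the other scaling and with the stricter filter, and Oas2 with the other scaling. Leaving out a library gave 0 to 21 genes higher, a fit in which the lone library is assumed to vary like the other group. Over all genes, 1013 higher and 766 lower were called with the block, 1021 and 768 with edgeR and the block, 673 and 548 with DESeq2, and 0 to 679 higher and 0 to 389 lower with a library left out. Over the pathway lists, 29 higher and 6 lower were called with the block, 32 and 7 with edgeR and the block, 25 and 2 with DESeq2, and 0 to 25 higher and 0 to 2 lower with a library left out. The cause was not tested.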
